A study of Mus musculus with 6 samples.

Results

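The genes described here encode enzymes of the tryptophan-kynurenine pathway and were chosen by name: Ido1, Ido2, Tdo2, Afmid, Kmo, Kynu, Haao, Qprt, Acmsd and Nnmt. The array annotation gave probe sets listed under 1 symbol alone for 9 of the 10 genes, 16 probe sets in all, among 18194 genes named in this way. Acmsd was not analysed here. Expression had been measured with Affymetrix Mouse Genome 430 2.0 arrays in colon and liver of male C57BL6/J mice aged 7 weeks. Control mice (CON) ate a basal diet and drank plain water. DSS mice ate the basal diet and, after 7 days of plain water, were given dextran sodium sulphate at 1.5% (w/v) in their water for 10 days, a treatment that damages the colon lining and is used as a colitis model. DSSPAR mice ate the diet with 2% parsley and drank the 1.5% polymer for 9 days after the same 7 days of water, as their treatment labels state, so diet and length of exposure cannot be told apart. Each of the 6 arrays read 1 pool of RNA from the 7 mice of its group. No difference below therefore has a replicate check, no test was possible, and precision is limited by the small number of arrays. In such whole-tissue RNA, a smaller number of cells of 1 type and less RNA in each cell cannot be told apart.

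The kynurenine pathway breaks down most of the dietary tryptophan that is not built into protein. IDO1, IDO2 and TDO2 each open the indole ring to give N-formylkynurenine, which AFMID hydrolyses to kynurenine. KMO hydroxylates kynurenine, KYNU cleaves the side chain, and HAAO opens the second ring, after which the product either closes to quinolinate, which QPRT turns toward NAD, or is diverted to full oxidation by ACMSD. NNMT acts at the far end, methylating nicotinamide, the product left when NAD is consumed. The liver normally carries the whole route with TDO2 as its entry, whereas IDO1 is an interferon-induced entry enzyme of immune, endothelial and epithelial cells.

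Values are intensities on a linear scale, and the median of a tissue's 3 arrays, 25.1 in colon and 96.6 in liver, was taken as a floor that stands for background. Values under it were raised to it in ratios, and a fold with 1 such value is given as "at least". Probe sets of olfactory receptors, genes neither tissue should express, lay above the floor in at most 1 of 44 cases in a colon array and in 7 to 12 of 44 in a liver array, so low liver values are the less secure. The 2 brightest probe sets of a gene disagreed in their log2 ratio with a robust SD of 0.35 to 0.40 in colon and 0.44 to 0.52 in liver, depending on the comparison. All 8 colon epithelium markers were above the floor in every colon array and all 7 hepatocyte markers in every liver array. The arrays of a tissue differed in their medians, with a log2 ratio of DSSPAR to CON of -0.28 in colon and -0.31 in liver. Centring the arrays on their medians raises a ratio of DSSPAR to CON by that amount where both values lie above the floor, and by less where the floor enters. The shares of all genes that centring gives stand below in parentheses. The tissues were scaled apart by the submitters, and levels were not compared between them.

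The pathway was present to very different degrees in the 2 tissues. In liver, 8 of the 9 enzymes were above the floor in all 3 arrays. The brightest Tdo2 probe set stood at the 99.7th percentile of its array or higher in each group, and Kmo, Haao and Nnmt between percentiles 96.5 and 99.1. Ido1 was the exception, under the liver floor in all 3 arrays at 86.0 in CON, 15.7 in DSS and 10.9 in DSSPAR. In colon the picture was the reverse: Ido1, Afmid and Nnmt alone were above the floor in all 3 arrays, Kmo in 2, and Ido2, Tdo2, Kynu, Haao and Qprt in none. Only these 4 genes entered colon ratios, and nothing is said below of a change in the other 5.

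**Figure D1:**
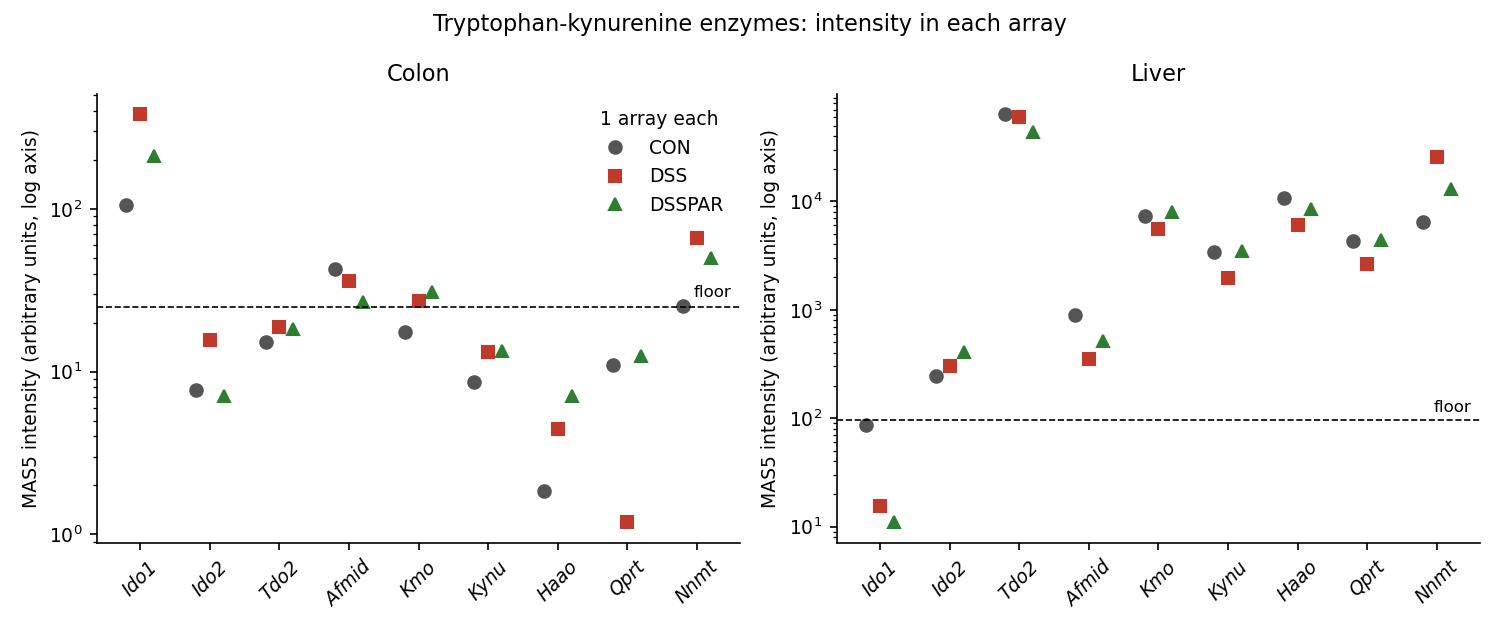
Intensity of each enzyme in the 3 colon arrays (left) and the 3 liver arrays (right) on a log axis, with 1 point per array and the floor as a dashed line at 25.1 and 96.6. A gene is shown by its brightest probe set in that tissue. In colon Ido1 stands highest and most enzymes lie under the floor, while in liver Ido1 alone lies under it.

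Among the entry enzymes in colon, Ido1 was the one that could be measured. Its intensity was 106 in CON, 383 in DSS and 211 in DSSPAR. The DSS array was thus the highest and the CON array the lowest, and the DSSPAR array lay between them. Of the 10544 genes above the floor in all 3 colon arrays, 33.8% were highest in DSS and 42.4% lowest in CON. For Ido1, DSS was 3.63-fold above CON (log2 ratio 1.86), and 140 of the 11952 genes measured had a higher ratio. DSSPAR was 1.81-fold below DSS (log2 ratio -0.86, with 252 of 11730 genes lower) and 2.00-fold above CON (log2 ratio 1.00). The first 2 log2 ratios exceeded the spread between probe sets of a gene, which was 0.39 for DSS against CON and 0.35 for DSSPAR against DSS. Ido1 was read by 1 probe set, so no second probe set bears on these values. Ido2, its neighbour on the chromosome, read 7.76, 15.5 and 7.10 in CON, DSS and DSSPAR, all under the floor.

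Nnmt, the nicotinamide methylating enzyme, followed the same order in colon. It read 25.3 in CON, 66.0 in DSS and 50.1 in DSSPAR. The CON value lay barely above the floor of 25.1, so the fold is sensitive to background. DSS was 2.60-fold above CON (log2 ratio 1.38, with 288 genes higher), and DSSPAR was 1.97-fold above CON (log2 ratio 0.98). DSSPAR was 1.32-fold below DSS, a log2 ratio of -0.40 that is close to the 0.35 spread between probe sets.

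The 2 remaining colon enzymes did not pass 2-fold in any comparison. Afmid, the formamidase, read 42.6 in CON, 36.1 in DSS and 26.7 in DSSPAR, which placed DSSPAR 1.59-fold below CON and DSS 1.18-fold below. The log2 ratio of DSSPAR to CON, -0.67, exceeded the 0.40 spread between probe sets, and 727 of 11808 genes were lower. Kmo, the hydroxylase, read 17.6 in CON, under the floor, 27.2 in DSS and 30.8 in DSSPAR. That left DSS at least 1.08-fold and DSSPAR at least 1.23-fold above CON. Both values above the floor were so near it that a larger difference could not be shown.

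In counts, 2 of the 4 colon enzymes were at least 2-fold higher in DSS than in CON and 0 were lower, beside 5.18% of all measured genes higher and 1.97% lower (5.97% and 1.62% with arrays centred on their medians). Between DSSPAR and DSS, 0 of 4 passed 2-fold in either direction, where 0.392% of all genes were higher and 1.24% lower (0.910% and 0.665% with centring). Against CON, DSSPAR had 1 of 4 higher and 0 lower (3.51% and 2.1% of all genes, or 7.50% and 1.02% with centring), and this call, Ido1, sat at the threshold itself. With 4 genes such shares describe these arrays and no more. The 4 enzymes had a median log2 ratio of 0.75 in DSS relative to CON, where that of all measured genes was 0.042. Relative to DSS, the DSSPAR median was -0.42 (all genes, -0.013), and relative to CON it was 0.64 (all genes, 0.027). DSS and CON each serve in 2 of the 3 comparisons, so these do not check one another.

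**Figure D2:**
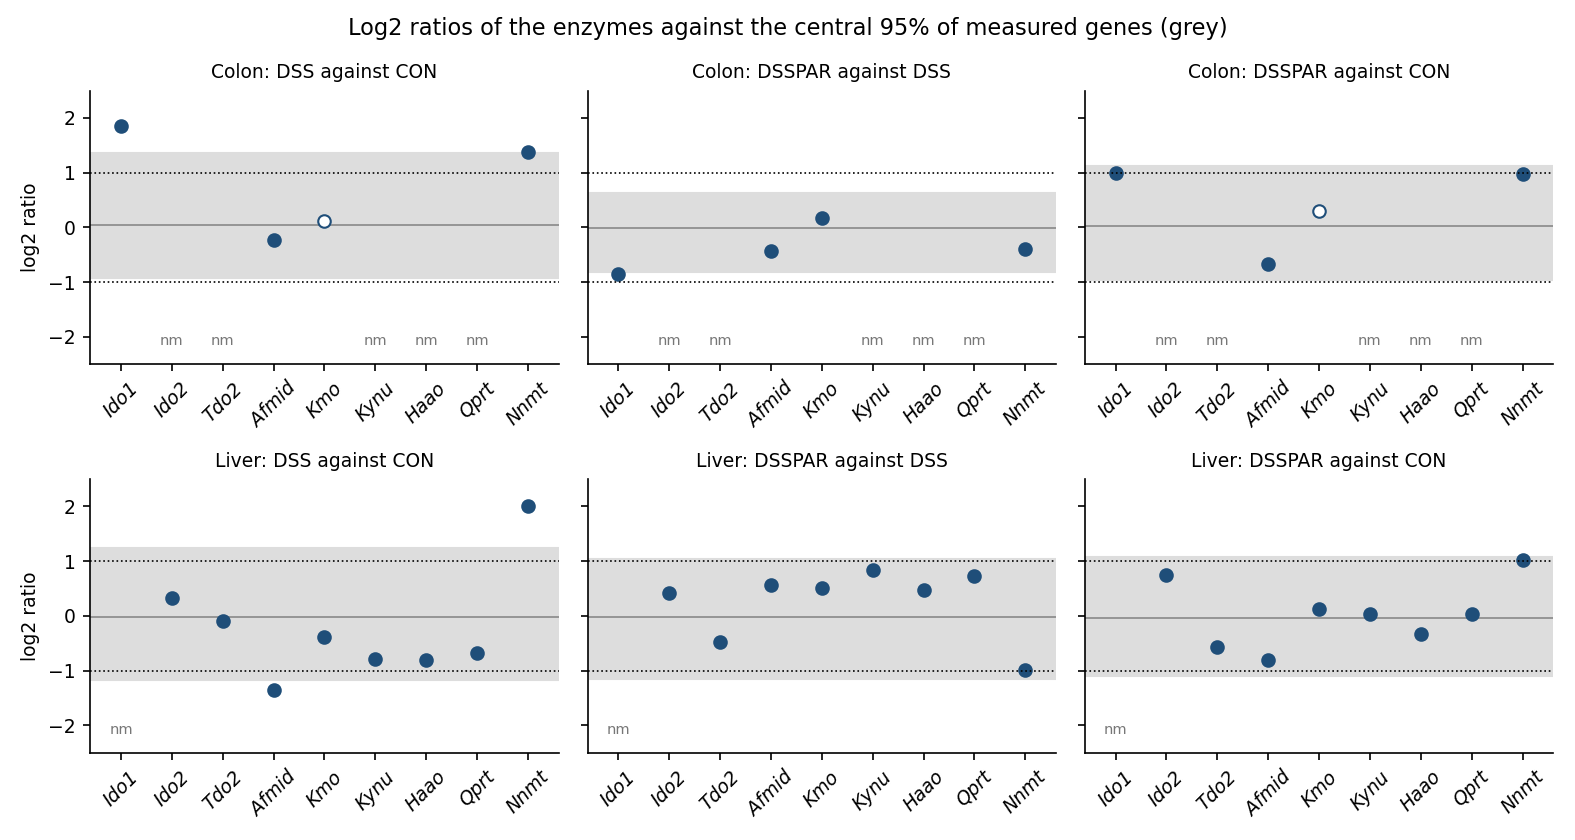
Log2 ratio of each enzyme (points) in 3 comparisons of colon (top) and liver (bottom), with the central 95% of all measured genes in grey, their median as a line and 2-fold as dotted lines. Open points are lower bounds and nm marks genes under the floor in both arrays. For DSS against CON, Ido1 (1.86) and, just, Nnmt (1.38) in colon and Nnmt in liver (2.00) stand above the grey band, and Afmid in liver (-1.36) below it. For DSSPAR against DSS, Ido1 in colon (-0.86) lies just below it.

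Interferon gamma is the classical inducer of Ido1, and its signalling genes were read beside it. Of 11 measured in colon, 3 were at least 2-fold higher in DSS than in CON and 0 lower, beside the 5.18% and 1.97% of all genes. The chemokine gene Cxcl9 read 23.1, 493 and 184 in CON, DSS and DSSPAR, at least 19.6-fold above CON in DSS. Cxcl10, a chemokine gene of the same response, read 23.1, 221 and 104, and the GTPase gene Gbp2 read 171, 1103 and 667. All 3 had the order of Ido1, with DSS highest and CON lowest. Among genes above the floor in all 3 colon arrays, DSS was highest in 33.8% and CON lowest in 42.4%. Between DSSPAR and DSS, Cxcl9 was 2.68-fold and Cxcl10 2.14-fold lower, and Gbp2 1.66-fold lower. The transcription factor gene Irf1 had another order, with 620 in CON, 1019 in DSS and 1132 in DSSPAR. Ifng itself, named here after its values were seen, read 5.34, 27.5 and 12.3, above the floor in DSS alone.

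Markers of several cell types differed between the same colon arrays. Of 8 macrophage markers 6 were at least 2-fold higher in DSS than in CON, beside 5.18% of all genes. The 8 summed to 1625 in CON, 5762 in DSS and 5040 in DSSPAR. Summed dendritic cell markers (8 genes) read 216, 322 and 322, endothelial markers (7 genes) 353, 643 and 359, and fibroblast markers (6 genes) 5493, 10552 and 7944. Lymphocyte markers (7 genes) read 176, 285 and 295, and adipocyte markers (5 genes) 326, 842 and 576. Only 2 lymphocyte markers were above the floor in each array. In CON, DSS and DSSPAR, 3, 4 and 5 dendritic cell and 2, 3 and 2 adipocyte markers were, so these sums include background. Neutrophil markers (7 genes) summed to 79.4, 2983 and 2405. S100a8 (2057 in DSS) and S100a9 (839 in DSS) made up most of the DSS sum, while Cxcr2, Csf3r, Mpo and Elane were under the floor in all 3 colon arrays. Exocrine pancreas genes (6 genes) summed to 36.9 in CON, 2219 in DSS and 38.2 in DSSPAR, and all 6 were above the floor in the DSS array and none in the others. Colon epithelium markers (8 genes) summed to 31449, 26562 and 28450. Macrophage, neutrophil, fibroblast, adipocyte and endothelial sums all had the order of Ido1 and Nnmt, with DSS highest and CON lowest. The endothelial sum in DSSPAR lay close to CON. The pancreas sum was highest in DSS, but its CON and DSSPAR values lay under the floor and cannot be ordered. The gene 18S, a ribosomal RNA control, read 2384, 1154 and 254 in the colon arrays, and the ratio of 3′ to 5′ probe sets, a gauge of RNA integrity, was 0.850, 0.696 and 0.753 for Gapdh and 1.61, 1.30 and 1.69 for beta-actin. No marker was listed at 0, and the part of any of these cell types or of RNA quality in the Ido1 and Nnmt values was not tested.

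In liver the log2 ratios of Afmid, Kmo, Kynu, Haao and Qprt were below 0 for DSS against CON and above 0 for DSSPAR against DSS, while those of Nnmt ran the other way. Of these, Afmid and Nnmt passed 2-fold for DSS against CON and none of the 6 passed it for DSSPAR against DSS. The ratios of DSSPAR to DSS for Kmo (0.51) and Haao (0.48) lay under the 0.52 spread between probe sets, and that of Afmid turned from 0.56 to -0.22 with the mean over its probe sets. With intensities as deposited, Kynu, Qprt and Kmo in DSSPAR were within 1.09-fold of CON. Haao and Afmid stayed 1.26-fold and 1.74-fold below it. With arrays centred on their medians, the log2 ratios of DSSPAR to CON were 0.35, 0.34 and 0.44 for Kynu, Qprt and Kmo. Those of Haao and Afmid were then -0.026 and -0.49, so which enzymes lay near CON depends on the scaling. Afmid was the one enzyme more than 2-fold lower in DSS than in CON. Its brightest probe set read 904 in CON, 352 in DSS and 519 in DSSPAR, so DSS was 2.57-fold below CON (log2 ratio -1.36), a lower ratio than in all but 179 of 13034 genes. DSSPAR was 1.47-fold above DSS and still 1.74-fold below CON. The 2 other Afmid probe sets above the floor were also lower in DSS than in CON, at 736, 477 and 372 for the first and 262, 90.0 and 209 for the second, with the DSS value of the second under the floor. They disagreed on DSSPAR, which was 1.28-fold below DSS on the first and at least 2.17-fold above it on the second. The fourth Afmid probe set was under the floor in all 3 arrays.

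Kynu, the kynureninase, and Haao, the dioxygenase after it, were both lower by similar amounts in DSS. Kynu read 3396 in CON, 1968 in DSS and 3497 in DSSPAR, and DSS was 1.73-fold below CON (log2 ratio -0.79). In DSSPAR it was 1.78-fold above DSS and, with intensities as deposited, within 1.03-fold of CON. A second Kynu probe set (61.7th percentile of the CON array against 94.7th) read 167, 215 and 228 and ran the other way. Haao read 10721, 6114 and 8515, with DSS 1.75-fold below CON (log2 ratio -0.81) and DSSPAR 1.39-fold above DSS, on its only probe set.

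Qprt, which takes quinolinate toward NAD, gave the same order on both of its probe sets. The brighter read 4272 in CON, 2661 in DSS and 4383 in DSSPAR, with DSS 1.61-fold below CON (log2 ratio -0.68) and DSSPAR 1.65-fold above DSS. The other read 3292, 2552 and 3305, with DSS 1.29-fold below CON and DSSPAR 1.30-fold above DSS. On both, DSSPAR lay within 1.03-fold of CON with intensities as deposited. Kmo read 7290, 5604 and 7972, and its log2 ratio of -0.38 for DSS against CON was smaller than the 0.50 spread between probe sets of a gene in liver.

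The first bases around the start of 3 of these genes are shown because Afmid, Haao and Qprt were lower together in the DSS liver, Afmid because it passed 2-fold and the other 2 added after their values were seen. Each window runs 5′ to 3′ on the gene's strand from 250 bases before to 50 after its start, from RefSeq on GRCm38.p6. Promoters of 6 of the 10 genes matched by symbol (Acmsd, Afmid, Haao, Kmo, Qprt and Tdo2). Afmid lies at chr11:117825669-117825968 (plus strand), where its neighbour in the gene table is Tk1, Haao at chr17:83846741-83847040 (minus strand) and Qprt at chr7:127121980-127122279 (minus strand). Capitals mark matches to the motifs searched.
Afmid: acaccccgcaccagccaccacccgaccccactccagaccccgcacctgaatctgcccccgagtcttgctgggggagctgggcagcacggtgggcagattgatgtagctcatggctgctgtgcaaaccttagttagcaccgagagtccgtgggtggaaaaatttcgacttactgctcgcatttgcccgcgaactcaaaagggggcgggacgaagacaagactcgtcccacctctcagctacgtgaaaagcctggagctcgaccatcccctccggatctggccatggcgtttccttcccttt
Haao: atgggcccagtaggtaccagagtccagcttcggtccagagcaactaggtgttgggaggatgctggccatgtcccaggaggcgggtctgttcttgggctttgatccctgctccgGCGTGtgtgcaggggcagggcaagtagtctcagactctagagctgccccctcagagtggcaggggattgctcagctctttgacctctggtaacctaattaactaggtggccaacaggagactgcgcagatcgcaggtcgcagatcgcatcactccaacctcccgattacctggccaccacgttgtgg
Qprt: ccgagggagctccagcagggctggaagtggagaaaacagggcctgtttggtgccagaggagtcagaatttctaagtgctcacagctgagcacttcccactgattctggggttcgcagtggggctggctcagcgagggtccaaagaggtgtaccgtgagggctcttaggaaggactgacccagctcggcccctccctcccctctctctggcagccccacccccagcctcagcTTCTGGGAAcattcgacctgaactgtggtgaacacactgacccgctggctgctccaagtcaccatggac

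The motifs searched on both strands were the interferon element core GAAANNGAA, the STAT element TTCNNNGAA and the aryl hydrocarbon receptor core GCGTG. They occur in 8.56%, 8.30% and 32.4% of all 32851 promoter windows of this length, and the first 2 can overlap each other. Haao holds 1 receptor core, with its first base at position -137 from the gene start, and Qprt holds 1 STAT element, with its first base at -19. The Afmid window holds none of the 3, and neither does that of Kmo, which was searched but is not printed. Over the 6 windows, 0 held the interferon element core, 1 the STAT element and 3 the receptor core, counts too small to set against the shares. Ido1, Ido2, Kynu and Nnmt had no matched window and were not searched, so these counts say nothing of them. A match is a string of letters and not a measured binding site.

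Tdo2, the main entry enzyme of the liver, lay below CON in DSS on each of its 3 probe sets. The amounts differed widely, so no single size can be given. The brightest read 63999 in CON, 59711 in DSS and 43164 in DSSPAR, so that DSS was within 1.07-fold of CON, a ratio whose sign turned (log2 0.046 for -0.10) with arrays centred on their medians, and DSSPAR 1.48-fold below it (log2 ratio -0.57). The second read 19791, 9198 and 9939, with DSS 2.15-fold and DSSPAR 1.99-fold below CON. The third read 14653, 11609 and 10791, with DSS 1.26-fold and DSSPAR 1.36-fold below. All 3 were highest in CON, and for DSSPAR against CON all 3 lay below by 0.44 to 0.99 log2 units. Ido2, the other entry enzyme above the liver floor, read 243 in CON, 306 in DSS and 410 in DSSPAR, 1.69-fold above CON in DSSPAR (log2 ratio 0.76). It shrank to 0.16 once the 75th percentile served as floor.

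**Figure D3:**
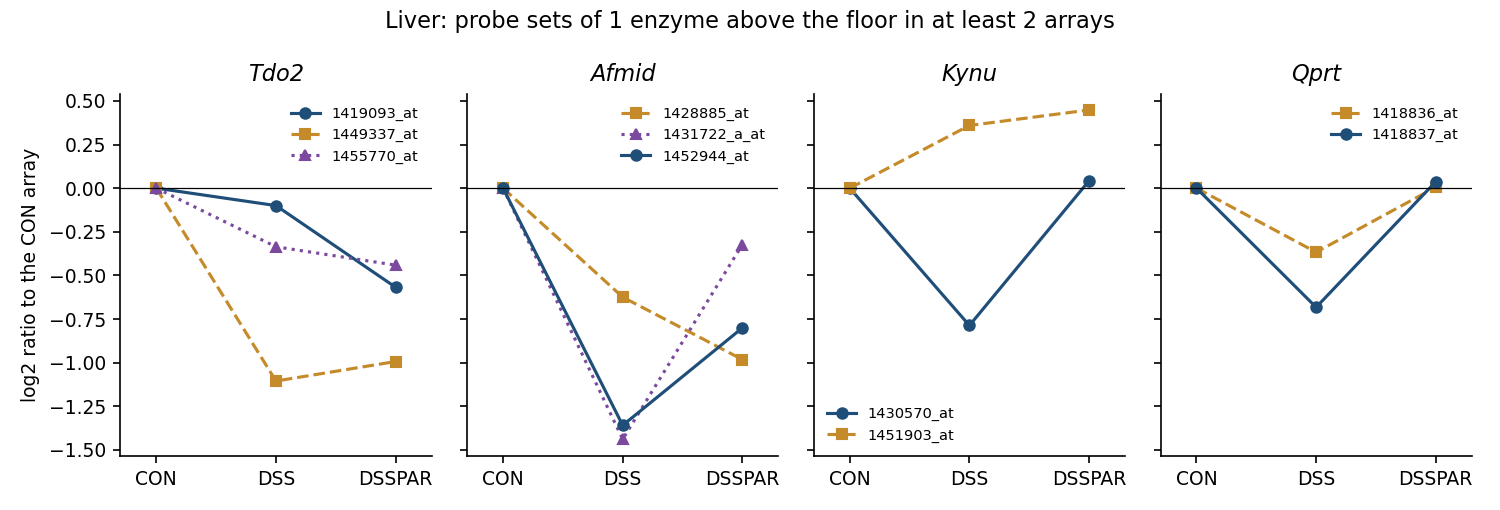
Log2 ratio to the CON array in liver for each probe set of Tdo2, Afmid, Kynu and Qprt that was above the floor in at least 2 arrays; the solid line is the brightest. Both Qprt lines dip in DSS and return, the 2 Kynu lines part (-0.79 and 0.36 in DSS), and the 3 Tdo2 lines range from -0.10 to -1.11 in DSS. The DSS point of the lowest Afmid line was raised to the floor and is a bound.

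Nnmt showed the largest difference of the set in liver. It read 6416 in CON, 25628.5 in DSS and 12991 in DSSPAR. The DSS array stood clear of both others, and DSSPAR stood between. DSS was 3.99-fold above CON (log2 ratio 2.00), a ratio exceeded by 63 of 13034 genes, and DSSPAR was 2.02-fold above CON and 1.97-fold below DSS (log2 ratios 1.02 and -0.98). These exceed the liver spread between probe sets, 0.44 to 0.52, though Nnmt too has 1 probe set, of a type that can share probes between transcripts (identifier ending in _a_at). Nnmt was highest in DSS, intermediate in DSSPAR and lowest in CON in both tissues.

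Of the 8 liver enzymes, 1 was at least 2-fold higher (Nnmt) and 1 at least 2-fold lower (Afmid) in DSS than in CON, beside 4.73% and 4.2% of all measured genes (6.67% and 2.73% with centring). For DSSPAR against DSS 0 of 8 passed 2-fold, beside 2.8% of genes higher and 4.23% lower (5.34% and 2.63% with centring). For DSSPAR against CON 1 of 8 was higher and 0 lower, beside 3.26% and 3.45% (7.94% and 1.48% with centring, where Ido2 also passed). By sign alone, 6 of 8 lay below CON in DSS (median log2 ratio -0.53, against -0.018 over all genes) and 6 of 8 lay above DSS in DSSPAR (median 0.49, against -0.019). The share of all genes on each side of 0 was not counted. Both counts depend on the processing: Tdo2 turned from -0.10 to 0.046 in the first with centring. In the second, Afmid turned from 0.56 to -0.22 with the mean over its probe sets. Against CON the DSSPAR median was 0.040, beside -0.040 over all genes. In 5 of the 8 (Afmid, Kmo, Kynu, Haao and Qprt) the DSS array was the lowest of the 3, an order shared by 36.5% of the 10131 genes above the floor in all 3 liver arrays. Ratios of DSS to CON and of DSSPAR to DSS share the DSS array, whose own deviation would enter them with opposite signs.

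The 7 hepatocyte markers all lay above CON in DSS (median log2 ratio 0.35), with Fgb the highest at 0.88. They summed to 510133 in CON, 687036 in DSS and 429260 in DSSPAR. Other genes bright in liver went either way in DSS, such as Hal (log2 ratio -1.71) and Mat1a (0.72), so these markers do not stand for all of them. Macrophage markers (8 genes) summed to 16772, 29029 and 28034 and neutrophil markers (7 genes) to 1206, 23400 and 8433, of which S100a8 (14340.5 in DSS) and S100a9 (8274 in DSS) made up most, while Cxcr2 and Mpo were under the floor in all 3 liver arrays. Fibroblast markers (6 genes) summed to 13095, 20076 and 14490, endothelial markers (7 genes) to 3532, 2975 and 3435, dendritic cell markers (8 genes) to 885, 701 and 767, and lymphocyte markers (7 genes) to 593, 425 and 484. Only 4, 2 and 4 of the dendritic cell and 3, 1 and 1 of the lymphocyte markers were above the floor in CON, DSS and DSSPAR. With values raised to the floor the lymphocyte sums were 840, 756 and 725, so their order in DSS and DSSPAR is not secure. Adipocyte markers (5 genes) summed to 1810, 3946 and 1060 and exocrine pancreas markers (6 genes) to 525, 705.5 and 363, both highest in DSS. Of the adipocyte sum Fabp4 alone made up most, at 1478, 3796 and 945. Adipoq and Lep were under the floor in all 3 liver arrays, and Cidec and Retn were above it in CON alone. Only 2 of the pancreas markers were above the floor in each array. Macrophage, neutrophil and fibroblast sums had the order of Nnmt, with DSS highest and CON lowest. So had 18S, at 26922 in CON, 46497 in DSS and 33528 in DSSPAR. Most of the fibroblast sum was Dcn (9830, 14668.5 and 11079), and not every marker had that order. Col1a1 (167, 86.1 and 122) and Col1a2 (555, 454 and 485) were lowest in DSS, and Col3a1 (1365, 2251 and 1110) was lowest in DSSPAR. The ratio of 3′ to 5′ probe sets was 1.21, 1.54 and 1.07 for Gapdh and 3.55, 3.53 and 2.63 for beta-actin. The part of these cells or of RNA integrity in the values of Nnmt and the other enzymes was not tested.

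Genes around the pathway, 79 on the array in 9 lists, were read in the same way. Of 71 measured in liver, 4 were higher and 7 lower by 2-fold or more when DSS was set against CON (median log2 ratio -0.092), beside 4.73% and 4.2% of all genes. Of 67 measured for DSSPAR against DSS, 7 were higher and 3 lower (median 0.20), beside 2.8% and 4.23%. In colon 5 of 62 were higher and 0 lower in DSS than in CON (median 0.048), beside 5.18% and 1.97%, and 0 of 62 were higher and 2 lower in DSSPAR than in DSS (median 0.0023), beside 0.392% and 1.24%. Kynurenine can also be transaminated to kynurenic acid. Aadat, 1 of the aminotransferase genes, read 5428, 2089 and 2769 in liver CON, DSS and DSSPAR, 2.60-fold below CON in DSS and 1.96-fold in DSSPAR. Gcdh and Got2 were 1.45-fold and 1.34-fold below CON in DSS. Kyat1, another aminotransferase gene, was 1.30-fold above CON in DSS liver, and in colon it read 109, 172 and 259, 2.38-fold above CON in DSSPAR. All 6 genes of this list lay above DSS in the DSSPAR liver (0 past 2-fold, median log2 ratio 0.39, against -0.019 over all genes).

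NAD can be made from nicotinamide as well, through NAMPT. Nampt in colon read 187 in CON, 374 in DSS and 313 in DSSPAR, 2.00-fold above CON in DSS. It was the 1 gene past 2-fold of 8 measured on that list, beside 5.18% of all genes higher and 1.97% lower. In liver it read 2245, 3194 and 2060, 1.42-fold above CON in DSS. The adenylyltransferase genes Nmnat1 and Nmnat3 were 1.77-fold and 1.86-fold below CON in DSS liver, and Nmnat1 was 2.40-fold above DSS in DSSPAR. Nmnat2, the other adenylyltransferase gene, ran opposite, at 202 in CON, 244 in DSS and 70.9, under the floor, in DSSPAR, at least 2.52-fold below DSS and at least 2.09-fold below CON. Among genes that use NAD or oxidise nicotinamide, the liver aldehyde oxidase gene Aox3 read 10834, 4999 and 10774, 2.17-fold lower in DSS and back at CON in DSSPAR. In colon the interferon-responsive Parp9 read 292, 628 and 614, 2.15-fold above CON in DSS and 2.10-fold in DSSPAR.

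Tryptophan also feeds serotonin synthesis. Ddc, the aromatic amino acid decarboxylase gene, read 4021, 812 and 1785 in liver CON, DSS and DSSPAR, 4.95-fold below CON in DSS and 2.20-fold above DSS in DSSPAR. In colon it read 720, 437 and 703, 1.65-fold lower in DSS. The serotonin transporter gene Slc6a4 was 1.68-fold and the monoamine oxidase gene Maob 1.38-fold below CON in DSS colon. In the DSSPAR colon 7 of 9 genes of this list lay above DSS (median log2 ratio 0.31, against -0.013 over all genes). Maob in liver read 6782, 3682 and 7911, so DSSPAR was 2.15-fold above DSS, and Aanat, a gene of melatonin synthesis, was 2.13-fold above DSS in DSSPAR liver at 151, 109 and 233. Inmt, also of this list, fell further in DSSPAR. It read 60257, 33809 and 21424 in liver, 1.78-fold below CON in DSS and 2.81-fold in DSSPAR. Wars1, the tryptophanyl-tRNA synthetase gene, which interferon gamma also induces, read 174, 281 and 234 in colon and 188.5, 367 and 309.7 in liver, with DSS highest in both tissues.

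Kynurenine and kynurenic acid are ligands of the aryl hydrocarbon receptor. In liver Ahr read 2482 in CON, 9340 in DSS and 4495 in DSSPAR, 3.76-fold above CON in DSS (log2 ratio 1.91) and 1.81-fold in DSSPAR, the order of Nnmt. Cyp1a2, a cytochrome P450 target of the receptor, ran opposite, at 12659, 3608 and 12067, 3.51-fold below CON in DSS. Cyp1a1, another target, read 151 and 150 in CON and DSS and 78.2, under the floor, in DSSPAR. In colon Ahr read 242, 277 and 210, the receptor target Nqo1 read 115, 83.3 and 165, 1.98-fold above DSS in DSSPAR, and 0 of 5 measured genes of the list passed 2-fold for any comparison. Tdo2 is induced by glucocorticoids, and among genes of that response in liver Fkbp5 was 2.10-fold above CON in DSS and 1.96-fold in DSSPAR, while Tat, the tyrosine aminotransferase gene, stayed within 1.07-fold of CON in DSS and was 1.36-fold above it in DSSPAR. Tsc22d3, another gene of the response, read 1635, 1518 and 2508 in liver, 1.65-fold above DSS in DSSPAR. Hal, the histidine ammonia-lyase gene, read 4764, 1456 and 3930, 3.27-fold lower in DSS. Interferon gamma signalling genes in liver had 1 of 11 higher (Irf8, 2.25-fold) and 1 lower (Cxcl9, 3.05-fold) in DSS than in CON, beside 4.73% and 4.2% of all genes.

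**Figure D4:**
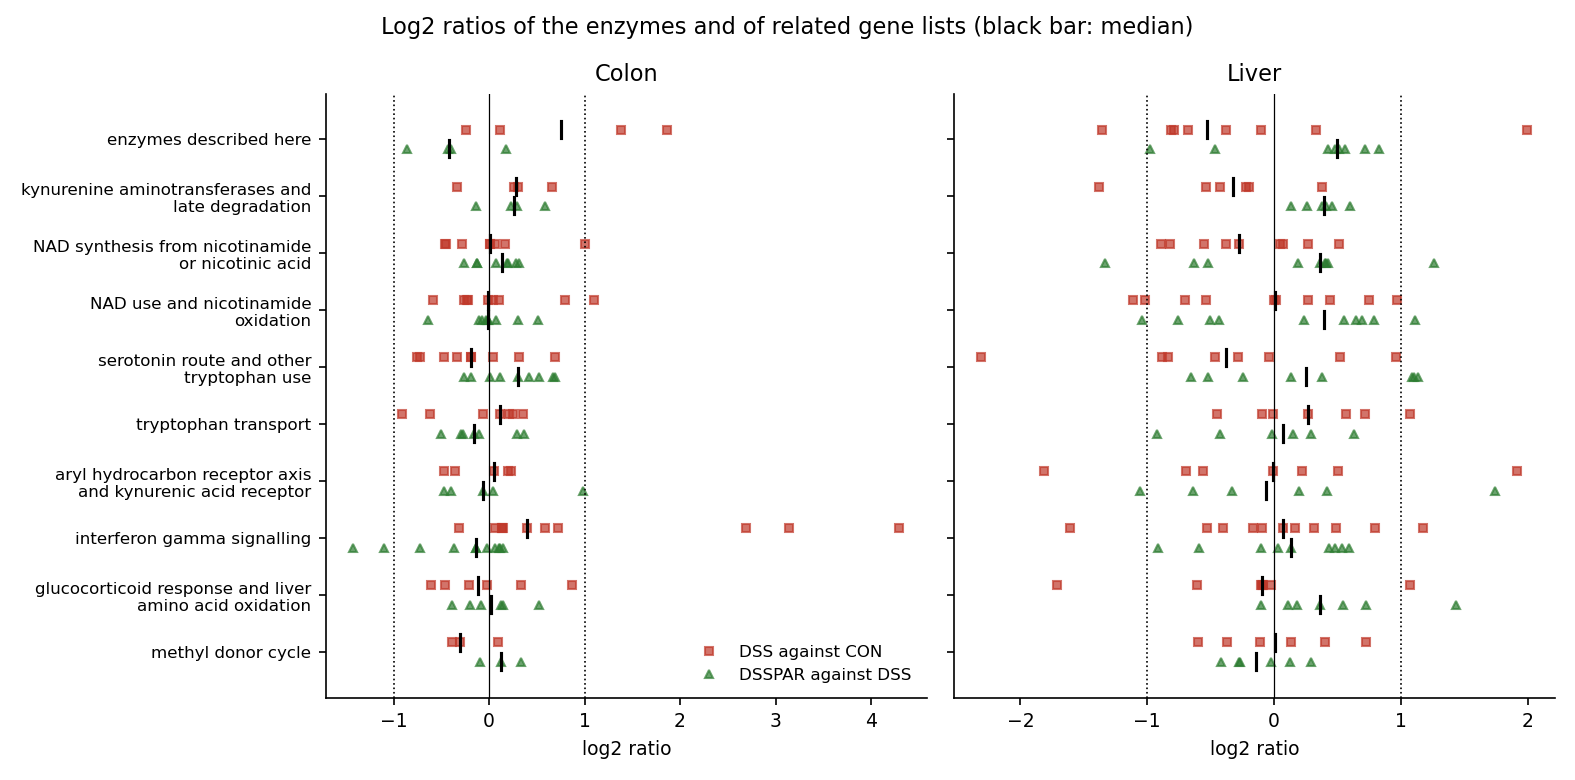
Log2 ratios of the pathway enzymes and of 9 related gene lists in colon (left) and liver (right), for DSS against CON (squares) and DSSPAR against DSS (triangles), with 1 point per measured gene, black bars for medians and 2-fold as dotted lines. The liver enzymes have medians of -0.53 and 0.49 in these comparisons, and the colon enzymes 0.75 and -0.42.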

How the data were processed

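Intensities, 1 per probe set and array, were deposited on a linear scale and had been made with MAS5, which scales each array by 1 factor, per the submitters' processing notes; its version and scaling target were not stated there. Samples were grouped by tissue and treatment from their titles, and 0 value columns were left unused.

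Of 45101 probe sets, 34958 carried 1 gene symbol in the platform annotation, 932 carried several and 9211 none, and those with several or none were left unnamed. Of the former, 34754 were found by Entrez identifier in the GRCm38.p6 gene table and 0 symbols changed. A gene was read by its probe set of highest mean log2 intensity in the tissue. Log2 ratios used intensities floored at the median (50th percentile) of the tissue's 3 arrays, for genes with at least 1 of the 2 arrays above it, and 2-fold was the threshold. With 1 array per group no test was run. The spread between the 2 brightest probe sets was the interquartile range of their difference in log2 ratio, scaled to an SD. It leaves out differences between pools.

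The 10 genes and the 19 lists beside them (164 genes, 148 on the array) were chosen with earlier results of these data known. All members were named, and from each pathway list genes among the 4 of largest ratio per tissue for DSS against CON or among the 4 for DSSPAR against DSS, followed in the other comparisons. Marker lists were given as sums. Calculations used Python 3.11.15, NumPy 2.4.6 and pandas 2.3.3, plots matplotlib 3.10.9, and the procedure was tested on simulated data. Alternatives were another floor, no floor, 2 other scalings, averaging the probe sets of a gene, omitting those of shared type, and a 1.5-fold threshold.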

Additional observations from a re-analysis of the deposited data

How the results depend on the processing

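No paired analysis was possible because each group has 1 array per tissue. The counts of enzymes past 2-fold, 2 and 2 for DSS against CON in colon and liver, 1 and 1 for DSSPAR against CON, and 0 and 0 for DSSPAR against DSS, changed under these alternatives. For colon DSS against CON the count was 1 with the floor at the 75th percentile or without probe sets of shared type, which leave Nnmt out, and 5 with no floor, where values under background enter. For colon DSSPAR against CON it was 2 with no floor, with arrays centred on their medians or after quantile normalization, Nnmt joining under both scalings, and 3 at 1.5-fold. For colon DSSPAR against DSS it was 2 with no floor and 1 at 1.5-fold. For liver DSS against CON it was 1 with the mean over probe sets, where Afmid had a log2 ratio of -0.83, 1 without shared probe sets, 3 with no floor, where Ido1 joins from under background, and 5 at 1.5-fold. For liver DSSPAR against CON it was 2 with no floor, with arrays centred on their medians and with the mean over probe sets, 0 without shared probe sets, and 3 at 1.5-fold. For liver DSSPAR against DSS it was 3 at 1.5-fold. No enzyme past 2-fold changed sign under any of these. Ido1 kept log2 ratios of 1.86 to 1.94 in colon DSS against CON, and Nnmt 1.89 to 2.14 in liver. For Kynu in liver the mean over probe sets gave -0.21 in place of -0.79. Tdo2 in liver DSS against CON turned from -0.10 to 0.046 with centring, and Afmid in liver DSSPAR against DSS from 0.56 to -0.22 with the mean over probe sets. Low signal limits the colon: 5 of 9 enzymes could not be measured there.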

Other observations

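Genes whose 2 log2 ratios to CON lay nearest to those of the leading enzyme were listed for each tissue, by Euclidean distance over DSS against CON and DSSPAR against CON, which rest on 3 arrays. For Ido1 in colon (1.86 and 1.00), the nearest 5 of 12090 genes were Tspan4, Col18a1, Cyp7b1, Reg3g and Icam1, at distances of 0.043 to 0.16. Reg3g encodes an antibacterial lectin of the gut epithelium and Icam1 an adhesion molecule for leukocytes. For Nnmt in liver (2.00 and 1.02), the nearest 5 of 13314 were Trim13, Tnfaip8, Lrp11, Ahr and Prcp, at 0.10 to 0.18.

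Genes that supply tryptophan or the methyl group used by NNMT were also read. In liver the amino acid transporter gene Slc36a4 read 391, 823 and 435 in CON, DSS and DSSPAR, 2.10-fold above CON in DSS, and the aromatic amino acid transporter gene Slc16a10 read 556, 825 and 1273, 2.29-fold above CON in DSSPAR. In colon 0 of 7 measured transporters passed 2-fold in any comparison. Mat1a, which makes the methyl donor S-adenosylmethionine in liver, was 1.65-fold above CON in DSS, and Gnmt, another enzyme that uses it, was 1.52-fold below. None of the 6 measured genes of this methyl cycle passed 2-fold in any liver comparison.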
